A study of Homo sapiens with 8 samples.

Results

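The 36 genes described here encode proteins that make ribosomes in the nucleolus: subunits and cofactors of RNA polymerase I, proteins of the small nucleolar ribonucleoprotein particles (snoRNPs), nucleolar scaffold proteins, and factors that process and assemble the small and the large ribosomal subunit. They were taken by name from tables of 56269 genes, and all 36 were found. The rule used no measured value, but the list was drawn up with earlier results of these data known. RNA sequencing had been run on SNU1079 and SSP25, 2 cell lines of human cholangiocarcinoma (CCA, cancer of the bile ducts), both labelled wildtype and both treated for 48 hours. The study's authors reported IDH1 and ARID1A mutations in SNU1079, so the label does not mean that tumor mutations are absent. Cells received BETp (ARV825 at 40 nM, a molecule that tethers BET bromodomain proteins to a ubiquitin ligase so that they are degraded), mTORi (AZD8055 at 50 nM, which blocks mTOR, a kinase that links nutrients to growth), BETp + mTORi (the combination), or vehicle (DMSO at 0.01%). The labels give no doses for the combination. Each treatment had 1 library in each line, 8 libraries in all, so the lines stand as replicates. P-values for comparisons of 2 treatments therefore measure the spread between the lines around an additive line effect. Where a drug is averaged over the other, the spread also includes any departure from additivity of the 2 drugs. Neither kind tells a drug effect within 1 line from a difference between single cultures. For the difference between the lines, the 4 libraries of a line, single cultures under different treatments, stand as its replicates. P-values there measure the spread around additive line and drug effects. Each line comes from a single tumor, so differences between SNU1079 and SSP25 describe these lines alone. The values of each line also came in a table of its own, so line cannot be told apart from any difference in how the 2 tables were made.

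The values were TPM, shares of all transcripts in a library that are scaled for gene length and keep no read depth, so the counting error of a value is unknown. Changes are differences of log2(TPM + 1), a scale that understates the change of weakly expressed genes, and ± is the standard error of the fit across all 8 libraries. A gene passed the test at a Benjamini-Hochberg adjusted p under 0.05 over the 16060 genes that reached 1 TPM in at least 2 libraries. All 36 genes were among them. Of 8 biliary markers, 7 were at 1 TPM or more in every SNU1079 library and 5 in every SSP25 library. In SSP25, EPCAM lay between 0.9 and 1.74 TPM. CDH1 was low in both lines, at 0.26 to 1.4 TPM in SNU1079 and 0.2 to 0.9 TPM in SSP25. Hepatocyte markers summed to 8.52 to 45.5 TPM in SNU1079, most of it SERPINA1, and to 0.11 to 0.67 TPM in SSP25. Other cell types' markers were low apart from CD68 in both lines, COL1A1 in SNU1079 (272 to 1003 TPM) and LUM in SSP25 (8.93 to 24.9 TPM).

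Ribosome assembly starts when RNA polymerase I transcribes the precursor of the large ribosomal RNAs in the nucleolus. Box C/D snoRNPs guide methylation of the RNA, box H/ACA snoRNPs guide its pseudouridylation, and large processome complexes cut and fold it into the small and the large subunit. The pathway consumes much of a growing cell's resources, mTOR signaling promotes it, and the transcription factor MYC is known to activate many of its genes, often through the E-box sequence. BET proteins are coactivators at many strongly transcribed genes, MYC among them in several tumor types.

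The 36 mRNAs spanned 3.65 to 3114 TPM. NPM1, a nucleolar histone and ribosome chaperone, was the most abundant, at 2351, 3114, 2664 and 2817 TPM under BETp, mTORi, the combination and vehicle in SNU1079 and 1334, 1204, 1129 and 1638 TPM in SSP25. UTP20, a small subunit processome protein, was the least abundant, at 10.4, 9.66, 8.1 and 9.18 TPM and 4.09, 3.65, 3.96 and 4.68 TPM in the same order. Together the 36 mRNAs made up 0.486%, 0.577%, 0.487% and 0.549% of the TPM total in SNU1079 and 0.301%, 0.281%, 0.267% and 0.35% in SSP25. Without NPM1 these shares were 0.25%, 0.266%, 0.221% and 0.267%, and 0.168%, 0.16%, 0.154% and 0.186%. The summed level was thus higher in every SNU1079 library than in any SSP25 library, and without NPM1 it was lowest under the combination in each line. NPM1 has many processed pseudogenes (45 are listed in the tables by name), and how reads were shared with them is unknown. NOP56 and RRN3 have 3 such listed pseudogenes each, NCL, NHP2 and PES1 have 2 each, and LYAR has 1. PPAN overlaps the readthrough gene PPAN-P2RY11 on the same strand, so its values are uncertain too. Overlaps with other genes annotated on the same strand are also listed for further members. Among these are UTP4 (with SNTB2), WDR74 (with TEX54), NOP2, RRS1 and HEATR1.

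**Figure D1:**
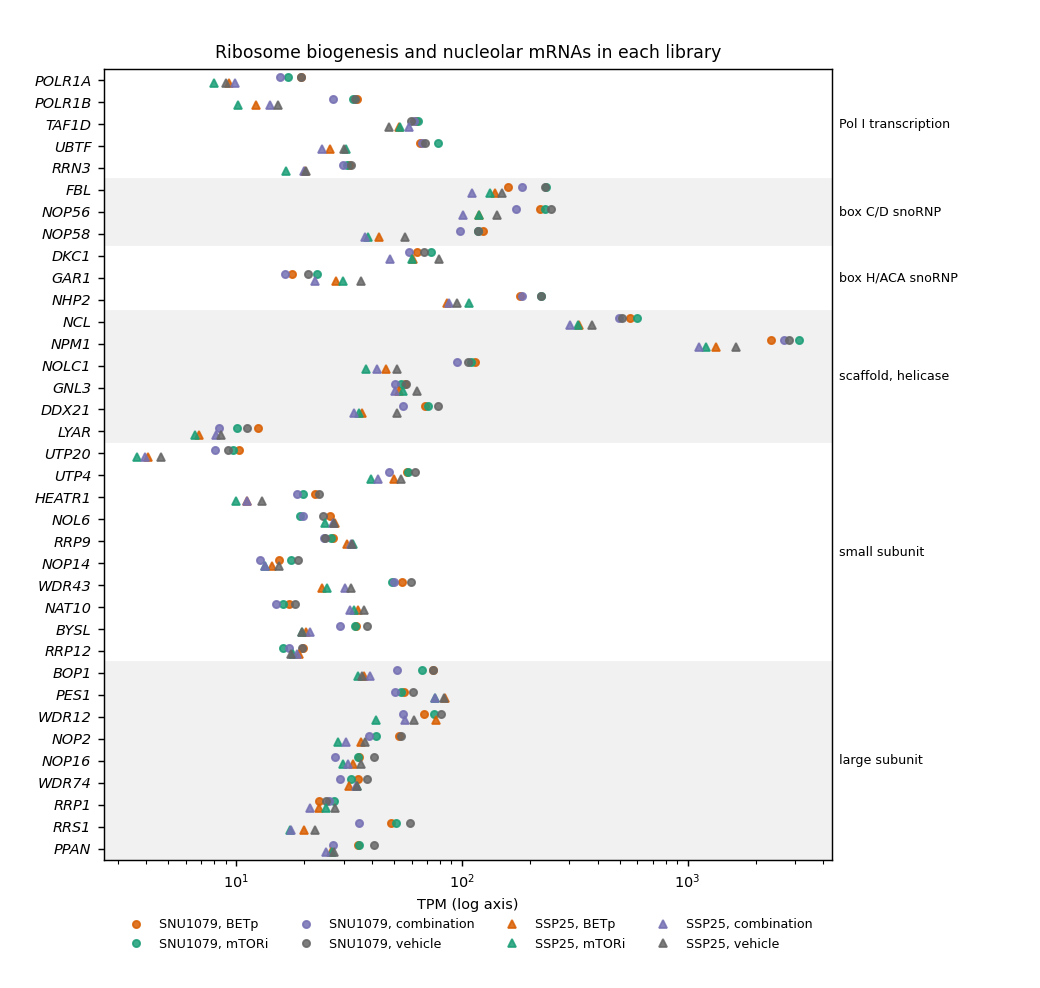
TPM of the 36 mRNAs (log axis), grouped by role, in the 8 libraries; circles are SNU1079, triangles SSP25, and colors the treatments. Levels ran from 3.65 TPM for UTP20 to 3114 TPM for NPM1, and for 20 genes every SNU1079 circle lies to the right of every SSP25 triangle, while for 3 genes the order is the reverse.

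The combination was compared with vehicle to ask what both drugs did together. None of the 36 genes passed the test. Of their mean changes 35 of 36 were below 0, against 11737 of all 16060 genes. The changes of largest size among the 36 were in snoRNP proteins, the helicase DDX21 and large subunit factors. NOP56 and DDX21 were at 64.7% to 70.3% of their vehicle level in the 2 lines. TAF1D, a subunit of the promoter selectivity factor of RNA polymerase I, was the single gene with a mean change above 0. Much of the shift was shared with the transcriptome: the median over the 36 genes was -0.22, against -0.19 over all 16060 genes. Quantile normalization and centring each library on its median both put the 36-gene median at 0.01, so a direction for the group as a whole depends on the scaling.

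NOP56, a core box C/D snoRNP protein (GRCh37 chromosome 20, 2633239 to 2639039), had 173 and 101 TPM under the combination in SNU1079 and SSP25, against 248 and 144 TPM with vehicle. The combination library was thus at 70.0% and 70.3% of its vehicle library. The log2 change was -0.51 ± 0.10 and missed the threshold narrowly (limma adjusted p = 0.0521). DDX21, an RNA helicase that works in rRNA transcription and processing, had 55.0 and 33.4 TPM under the combination, against 78.5 and 51.6 TPM with vehicle (-0.56 ± 0.13, limma adjusted p = 0.0685). RRS1, which helps bring 5S rRNA into the large subunit, had 35.3 and 17.6 TPM under the combination, against 59.1 and 22.4 TPM with vehicle (-0.53 ± 0.15, limma adjusted p = 0.0942). In these 3 genes the combination library was below the vehicle library in each line. TAF1D, a gene within which 8 snoRNAs are annotated, had 61.5 and 58.5 TPM under the combination, against 59.4 and 47.5 TPM with vehicle (0.17 ± 0.11, limma adjusted p = 0.345). Such snoRNAs are annotated within 8 of the 36 genes, NOP56 among them.

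By role, the median changes were -0.46 for the 3 box H/ACA proteins, -0.42 for the 3 box C/D proteins, -0.34 for the 9 large subunit factors, -0.23 for the 6 scaffold and helicase genes, -0.17 for the 10 small subunit factors and -0.08 for the 5 RNA polymerase I genes. For 3 other snoRNP genes outside the 36 (NOP10, SNU13 and NAF1) the median was -0.11, and 1 of the 3 was lower in both lines. Other ribosome assembly genes outside the 36 had medians of -0.30 for 10 RNA polymerase I genes, -0.25 for 47 small subunit factors and -0.21 for 55 large subunit factors. The order of these roles among the 36 was thus reversed there. In the box H/ACA particle, the pseudouridine synthase DKC1 had 58.3 and 48.2 TPM under the combination, against 67.7 and 79.3 TPM with vehicle. Its partner GAR1 had 16.5 and 22.3 TPM, against 20.8 and 35.8 TPM. Both were further below vehicle in SSP25 than in SNU1079. The methyltransferase FBL, at 185 and 111 TPM against 235 and 151 TPM, and its partner NOP58, at 98.0 and 37.3 TPM against 118 and 56.0 TPM, were also below vehicle in each line. The large subunit factors were further below vehicle in SNU1079, with a median of -0.52 in SNU1079 and -0.13 in SSP25. BOP1, a scaffold of the complex with PES1 and WDR12 that acts in large subunit processing, was at 51.8 TPM against 74.6 TPM with vehicle in SNU1079 and at 39.3 TPM against 36.1 TPM in SSP25. RRP9, a protein of the U3 particle, hardly moved in either line, at 24.5 and 32.2 TPM against 24.8 and 32.7 TPM.

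No gene of the 36 was called (limma), while 1.81% of all genes were. At an unadjusted p under 0.05, 12 of the 36 (33.3%) were lower and 0 higher, against 22.5% of all genes lower, and limma with robust variances also called 0. Of the 36, 30 (83.3%) were lower than vehicle in both lines, against 51% of all genes. With the median over all genes taken off each line's change, 13 (36.1%) were below it in both lines, against 30.1% of all genes. The combination library was the lowest of the 4 in both lines for 10 of the 36 (27.8%), against 21.9% of all genes. Within SNU1079 it was the lowest for 27 of 36 genes (43.6% of all genes), and within SSP25 for 14 (39.2% of all genes). With a filter of 5 TPM, NOP56 passed (limma adjusted p = 0.0409).

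**Figure D2:**
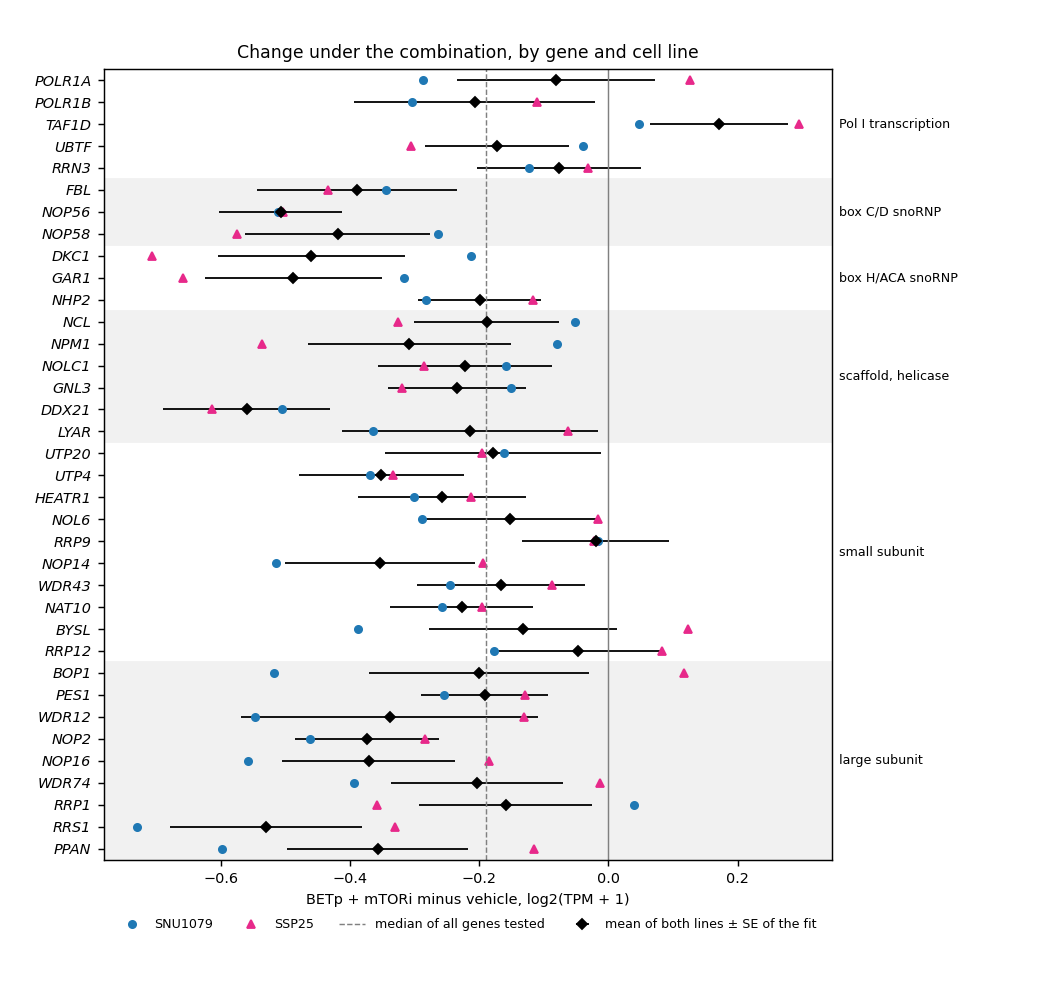
Change under the combination relative to vehicle in log2(TPM + 1) for each gene in SNU1079 (circles) and SSP25 (triangles), with the mean of both lines ± the standard error of the fit (diamonds); the dashed line is the median over all genes tested (-0.19). Diamonds lie from -0.56 (DDX21) to 0.17 (TAF1D), most of them near the dashed line; quantile normalization or median centring would move that line to about 0.

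Other measures moved with the combination. Of 16 mitosis genes, none passed and 10 had an unadjusted p under 0.05, all lower, with a median of -0.32 in SNU1079 and -1.41 in SSP25. Their summed level was 664 and 436 TPM under the combination, against 816 and 1208 TPM with vehicle, and MKI67, the proliferation antigen, was at 11.8 and 10.6 TPM against 17.5 and 24.2 TPM. Mitochondrially encoded transcripts took 19.2% and 10.1% of the TPM total, against 14.4% and 5.99% with vehicle. MYC had 124 and 43.8 TPM under the combination, against 121 and 41.8 TPM with vehicle (0.06 ± 0.11, limma adjusted p = 0.759). The part of cell proliferation and of these shares in the results above was not tested. In bulk RNA, fewer cells of a kind and less RNA per cell cannot be told apart.

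BETp was also averaged over the absence and presence of mTORi, which gives 4 pairs of libraries, 2 in each line. Among the 36, the genes with the lowest values under BETp were snoRNP proteins and DDX21. This did not extend to 3 other snoRNP genes tested, NOP10, SNU13 and NAF1, which are not among the 36. Their median was -0.02, and 0 of the 3 were lower in 4 of 4 pairs. GAR1, NHP2, DKC1, FBL and NOP56 were lower with BETp in 4 of 4 pairs, although none passed the test. Of the small subunit factors 8 of 10 were below 0 (median -0.05), and of the large subunit factors 8 of 9 (median -0.11), against 10268 of all 16060 genes. NOL6 and RRP12 were slightly above 0 in 4 of 4 pairs. The median over the 36 genes was -0.08, the same as over all genes (-0.08), and under median centring it was 0.01.

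GAR1 had 17.8 TPM under BETp against 20.8 TPM with vehicle and 16.5 TPM under the combination against 22.8 TPM under mTORi in SNU1079. In SSP25 the same pairs read 27.6 against 35.8 TPM and 22.3 against 29.9 TPM. The averaged change was -0.36 ± 0.09 (limma adjusted p = 0.0832). NHP2, which binds the H/ACA guide RNA, had 181 against 225 TPM and 185 against 224 TPM in SNU1079, and 85.7 against 94.9 TPM and 87.5 against 107 TPM in SSP25, in the same pairs (-0.26 ± 0.06, limma adjusted p = 0.0695). NHP2 thus had similar levels in both libraries with BETp and in both without it in SNU1079. NOP56 changed by -0.27 ± 0.06 (limma adjusted p = 0.0695), FBL by -0.31 ± 0.10 (limma adjusted p = 0.132) and DDX21 by -0.28 ± 0.09 (limma adjusted p = 0.12). FBL was at 68.4% of vehicle under BETp in SNU1079 and at 93.4% in SSP25. On the higher side, NOL6 changed by 0.07 ± 0.08 and RRP12 by 0.06 ± 0.08 (limma adjusted p = 0.679 and 0.691).

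Of the 36 genes, limma called 0 under averaged BETp, also with robust variances, against 1.82% of all genes. At an unadjusted p under 0.05, 8 (22.2%) were lower and 0 higher, against 17.2% of all genes lower. These 8 included the box C/D proteins NOP56 and FBL, all 3 box H/ACA proteins, DDX21, RRS1 and UBTF, an architectural factor of active rRNA genes. Lower in 4 of 4 pairs were 14 genes (38.9%), against 23.2% of all genes, and below the all-gene median of each pair in 4 of 4 pairs were 8 (22.2%), against 16% of all genes. Those 8 were UBTF, FBL, NOP56, DKC1, GAR1, NHP2, NPM1 and DDX21. The pairs differed between lines where mTORi was present: 33 of 36 genes were lower with BETp in SNU1079 (median -0.23) and 17 of 36 in SSP25 (median 0.01), while the all-gene medians were -0.08 and -0.05.

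BETp alone against vehicle gave 0 calls among the 36 and 0.00623% among all genes. An unadjusted p under 0.05 was reached by 2 of the 36, against 1429 of all 16060 genes. These 2 were DDX21 (-0.34 ± 0.13, limma adjusted p = 0.531) and NHP2. By size of change, FBL (-0.32 ± 0.16) and GAR1 (-0.29 ± 0.14) came next after DDX21, ahead of NHP2 (limma adjusted p = 0.603 and 0.601 for FBL and GAR1). On the higher side stood TAF1D (0.11 ± 0.11), RRP12 (0.06 ± 0.13) and NOL6 (0.06 ± 0.13), and the signs of RRP12 and NOL6 turned when 1 library was left out. MYC had 98.1 and 31.6 TPM under BETp, against 121 and 41.8 TPM with vehicle, with a change of -0.34 ± 0.11 (limma adjusted p = 0.484).

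mTORi was likewise averaged over the absence and presence of BETp. Its lowest values were in factors of the large and small subunit, with NOP2, WDR12 and RRS1 at the head, and in DDX21, NOP58, UTP4 and NOP56. No gene of the 36 passed. In contrast to BETp, the box H/ACA protein NHP2 and the box C/D methyltransferase FBL did not move one way, being higher under mTORi in 3 of 4 and 2 of 4 pairs. The median was -0.15 over the 36 genes and -0.11 over all genes, and the 36-gene median was -0.02 under quantile normalization.

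NOP2, a methyltransferase of large subunit rRNA (GRCh37 chromosome 12, 6666029 to 6677857), had 41.9 TPM under mTORi against 53.8 TPM with vehicle and 38.8 TPM under the combination against 52.5 TPM under BETp in SNU1079. In SSP25 these pairs were 28.2 against 37.5 TPM and 30.6 against 35.7 TPM. Both SNU1079 libraries with mTORi lay below both without it, and the same held in SSP25. The change was -0.35 ± 0.07 (limma adjusted p = 0.0583), and with a filter of 5 TPM NOP2 passed (limma adjusted p = 0.043). WDR12 changed by -0.35 ± 0.15 (limma adjusted p = 0.226) and RRS1 by -0.30 ± 0.10 (limma adjusted p = 0.13), both lower in 4 of 4 pairs. UTP4, a component of the small subunit processome, had 57.7 and 39.5 TPM under mTORi, against 62.0 and 54.1 TPM with vehicle, and an averaged change of -0.26 ± 0.08 (limma adjusted p = 0.122).

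Of the 36 genes, limma called 0 under averaged mTORi, also with robust variances, against 1.05% of all genes. At an unadjusted p under 0.05, 12 (33.3%) were lower and 0 higher, against 19.3% of all genes lower. These were 5 of 9 large subunit factors, 3 of 10 small subunit factors, 2 of 3 box C/D proteins, 2 of 6 scaffold and helicase genes and none of the 5 RNA polymerase I genes or the 3 box H/ACA proteins. Among ribosome assembly genes outside the 36, 13 of 55 large subunit factors and 17 of 47 small subunit factors were lower at that threshold. The larger share among large subunit factors was thus not seen there. Lower in 4 of 4 pairs were 15 genes (41.7%), against 26.2% of all genes. Relative to the all-gene median of each pair the count was 6 (16.7%), against 13% of all genes: DDX21, UTP4, NAT10, WDR12, NOP2 and RRS1. Ribosomal protein mRNAs had values of the other sign, with 13 of 85 called higher, 0 lower and a median of 0.20.

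mTORi alone against vehicle gave 0 calls among the 36 and 0.0125% among all genes. An unadjusted p under 0.05 was reached by 2 of the 36, against 1658 of all 16060 genes. These 2 were NOP2 (-0.38 ± 0.11, limma adjusted p = 0.417) and DDX21 (-0.34 ± 0.13, limma adjusted p = 0.453). WDR12 followed with -0.33 ± 0.23, a value that rested on SSP25, since it was 0.05 without the SSP25 library under mTORi. TAF1D (0.13 ± 0.11), UBTF (0.12 ± 0.11) and RRP9 (0.05 ± 0.11) were above 0 in both lines (limma adjusted p = 0.698, 0.749 and 0.918). Compared directly, in a contrast added after the data had been seen, mTORi and BETp differed in none of the 36 genes (0.0374% of all genes were called), with NOP2 at -0.32 ± 0.11 and NHP2 at 0.31 ± 0.10 as the lowest and the highest that shared their sign in both lines (limma adjusted p = 0.336 and 0.293).

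**Figure D3:**
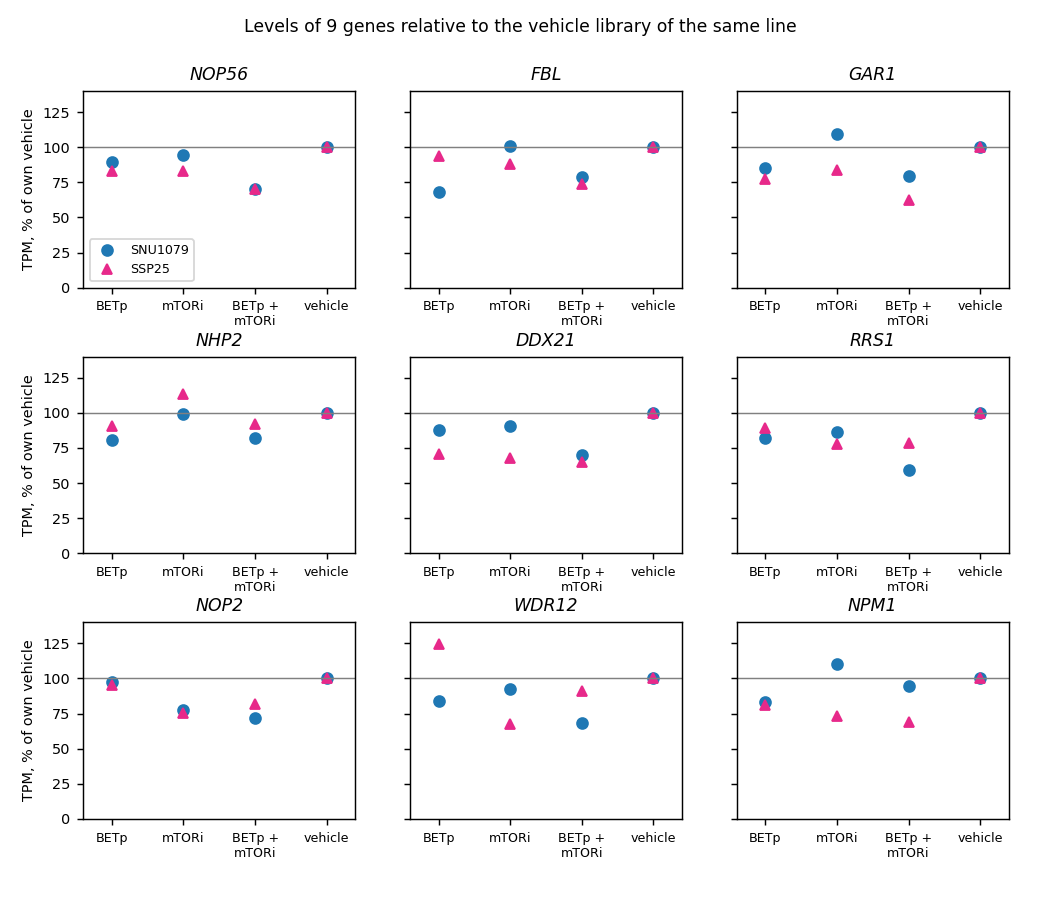
TPM of 9 genes chosen after their values were seen, as a percentage of the vehicle library of the same line, under BETp, mTORi, the combination and vehicle; circles are SNU1079 and triangles SSP25. All 18 combination points lie between 59.6% and 94.6%, while WDR12 under BETp and NPM1 under mTORi lie on opposite sides of 100% in the 2 lines.

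The combination was also set against each single drug, and tested for departure from the sum of both drug effects. Against BETp, 0 of the 36 genes and 0% of all genes were called, and 2 of the 36 had an unadjusted p under 0.05, against 1840 of all 16060. WDR12 (-0.37 ± 0.23), NOP2 (-0.32 ± 0.11) and RRS1 (-0.31 ± 0.15) had the lowest values shared by both lines. NHP2 was the single gene above 0 in both lines (0.03 ± 0.10). Against mTORi, 0 of the 36 and 0.0125% of all genes were called, and 4 of the 36 had an unadjusted p under 0.05, against 2145 of all 16060. Here the lowest shared values were those of GAR1 (-0.42 ± 0.14), NOP56 (-0.33 ± 0.10) and DKC1 (-0.31 ± 0.14), while WDR43, NOL6 and RRP12 lay at 0.14, 0.07 and 0.06 (limma adjusted p = 0.26 to 0.87 for these 6 genes). NOP56 was the gene with an unadjusted p under 0.05 against both single drugs. Departure from additivity called 0 of the 36 and 0% of all genes, with 0 of the 36 at an unadjusted p under 0.05, against 322 of all 16060. The largest was in WDR43, another small subunit processome protein, at 0.41 ± 0.18 (limma adjusted p = 1.0). It had 54.2, 49.2, 50.3 and 59.7 TPM under BETp, mTORi, the combination and vehicle in SNU1079 and 24.2, 25.4, 30.5 and 32.4 TPM in SSP25, so that in SSP25 the combination lay closer to vehicle than either drug did.

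Whether the lines differed in their response was tested with terms for line by drug. WDR12 and NPM1 showed the clearest contrasts, and neither passed. WDR12 under BETp lay below its pair in SNU1079, at 68.0 TPM against 81.0 TPM with vehicle and at 55.2 TPM for the combination against 75.0 TPM under mTORi. In SSP25 it lay above, at 76.7 TPM against 61.6 TPM and at 56.2 TPM against 41.7 TPM. The difference in the BETp effect, SNU1079 minus SSP25, was -0.71 ± 0.12 (limma adjusted p = 0.191). NPM1 under mTORi lay above its pair in SNU1079, at 3114 TPM against 2817 TPM with vehicle and 2664 TPM for the combination against 2351 TPM under BETp, and below it in SSP25, at 1204 against 1638 TPM and 1129 against 1334 TPM. The difference in the mTORi effect was 0.50 ± 0.09 (limma adjusted p = 0.231). FBL and DKC1 had differences of 0.36 each in the mTORi effect (limma adjusted p = 0.284 and 0.307). For these tests 0 of the 36 genes were called, against 0.00623% of all genes for BETp and 0% for mTORi. An unadjusted p under 0.05 was reached by 1 and 3 of the 36, against 1984 and 2282 of all 16060 genes. Under mTORi alone the mitosis genes also split by line: all 16 were higher than vehicle in SNU1079 and all 16 lower in SSP25, and their part in the split of NPM1 was not tested.

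The lines themselves differed much more than the treatments. Of the 36 genes, 23 (63.9%) were higher in SNU1079 than in SSP25, against 39.1% of all genes, and 5 (13.9%) were lower, against 36.6% of all genes. All 5 RNA polymerase I genes and all 3 box C/D proteins among the 36 were higher, and so were 5 of 6 scaffold and helicase genes. This was less uniform outside the 36. Of 10 other RNA polymerase I genes, 5 were higher and 2 lower, and of 3 other snoRNP genes, 1 was higher and 2 lower. The 5 lower genes were NAT10, GAR1, PES1, RRP9 and NOL6. The median difference was 0.54 over the 36 genes, against 0.05 over all genes, and 0.50 to 0.85 under the alternatives tried, so this direction held under each scaling. The TPM ranges of the lines did not overlap for 23 genes (63.9%), against 63.3% of all genes. The share that differed at all was thus near that of the transcriptome, and what set the counts apart from it was their direction. That direction was not particular to the 36: of 85 cytosolic ribosomal protein mRNAs, 63 were higher and 17 lower in SNU1079, with a median of 0.63.

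Among RNA polymerase I genes, UBTF had 65.5, 78.7, 66.8 and 68.6 TPM in SNU1079 under BETp, mTORi, the combination and vehicle, against 26.1, 30.9, 24.2 and 30.1 TPM in SSP25 (1.30 ± 0.07, limma adjusted p = 1.48e-06). POLR1A, the largest subunit of the enzyme, lay between 15.7 and 19.4 TPM in SNU1079 and between 8.02 and 9.92 TPM in SSP25. POLR1B, its second large subunit, differed by 1.24 ± 0.13 (limma adjusted p = 4.14e-05), with 27.0 to 34.4 TPM against 10.3 to 15.4 TPM. RRN3, which makes the polymerase competent to start, ran from 29.7 to 32.4 TPM against 16.6 to 20.5 TPM, and TAF1D from 59.4 to 63.9 TPM against 47.5 to 58.5 TPM. Each of these 5 genes was higher in SNU1079 under 4 of 4 treatments.

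NOP58 had 124, 118, 98.0 and 118 TPM in SNU1079, against 42.8, 38.5, 37.3 and 56.0 TPM in SSP25, the largest difference of the 36 (1.38 ± 0.09, limma adjusted p = 3.34e-06). NOP56 differed by 0.85 ± 0.06 (limma adjusted p = 6.12e-06), with 173 to 248 TPM against 101 to 144 TPM. FBL lay between 160 and 236 TPM, against 111 to 151 TPM. Among the scaffold and helicase genes, the snoRNP chaperone NOLC1 (1.25 ± 0.09), NPM1 (1.05 ± 0.10), DDX21 (0.80 ± 0.09), nucleolin or NCL (0.69 ± 0.08) and LYAR (0.43 ± 0.13) were higher in SNU1079, with limma adjusted p from 4.16e-06 to 0.0163. NOLC1 ran from 95.4 to 115 TPM against 37.6 to 51.8 TPM, NCL from 496 to 596 TPM against 300.3 to 377 TPM and LYAR from 8.45 to 12.5 TPM against 6.6 to 8.61 TPM. GNL3, the nucleolar GTPase nucleostemin, had 50.9 to 56.6 TPM against 50.5 to 63.2 TPM and did not pass (-0.02 ± 0.07, limma adjusted p = 0.765).

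The proteins of the box H/ACA particle, which assemble together, had mRNAs that differed in opposite directions. NHP2 had 181, 224, 185 and 225 TPM in SNU1079, against 85.7, 107, 87.5 and 94.9 TPM in SSP25 (1.11 ± 0.06, limma adjusted p = 1.05e-06). GAR1 had 17.8, 22.8, 16.5 and 20.8 TPM, against 27.6, 29.9, 22.3 and 35.8 TPM (-0.54 ± 0.09, limma adjusted p = 0.000744). DKC1 did not pass, at 58.3 to 73.0 TPM against 48.2 to 79.3 TPM. NOP10, the remaining protein of the particle and no member of the 36, was lower in SNU1079 (-1.37 ± 0.06, limma adjusted p = 3.32e-07). The ratio of NHP2 to GAR1 in TPM was 9.81 to 11.2 in SNU1079 and 2.65 to 3.91 in SSP25, without overlap.

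The same was seen for the complex of BOP1, PES1 and WDR12. BOP1 was higher in SNU1079 at 51.8 to 74.8 TPM against 34.6 to 39.3 TPM, PES1 was lower at 50.9 to 60.8 TPM against 75.9 to 84.4 TPM (-0.53 ± 0.06, limma adjusted p = 8.38e-05), and WDR12 at 55.2 to 81.0 TPM against 41.7 to 76.7 TPM did not pass. The BOP1 to PES1 ratio was 1.02 to 1.34 in SNU1079 and 0.432 to 0.513 in SSP25. Of the other large subunit factors, RRS1 (35.3 to 59.1 TPM against 17.4 to 22.4 TPM), NOP2 (38.8 to 53.8 TPM against 28.2 to 37.5 TPM) and PPAN (26.8 to 41.1 TPM against 25.1 to 27.2 TPM) were higher. NOP16, WDR74 and RRP1 had 27.5 to 40.9 TPM, 28.8 to 38.2 TPM and 23.4 to 27.2 TPM in SNU1079, against 29.7 to 35.9 TPM, 31.6 to 34.4 TPM and 21.3 to 27.6 TPM in SSP25, and none of the 3 passed.

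Small subunit factors differed in both directions, with 5 of 10 higher and 3 lower. HEATR1 (18.7 to 23.3 TPM against 10.0 to 13.1 TPM), UTP20, WDR43 and BYSL (28.9 to 38.1 TPM against 19.5 to 21.4 TPM) were higher in SNU1079, as was UTP4 by a smaller margin (0.27 ± 0.08, limma adjusted p = 0.0162). NAT10, which acetylates 18S rRNA (GRCh37 chromosome 11, 34127164 to 34169217), had 17.2, 16.2, 15.1 and 18.3 TPM in SNU1079, against 34.8, 33.2, 32.1 and 36.9 TPM in SSP25. Its difference was -0.997 ± 0.068 (limma adjusted p = 3.94e-06), lower in 4 of 4 treatments by nearly the same amount. RRP9 (24.5 to 27.0 TPM against 31.1 to 32.9 TPM) and NOL6 (19.3 to 26.2 TPM against 24.7 to 27.5 TPM) were lower too. NOP14, at 12.8 to 18.7 TPM against 13.4 to 15.5 TPM, and RRP12, at 16.2 to 19.8 TPM against 17.5 to 19.0 TPM, did not pass.

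**Figure D4:**
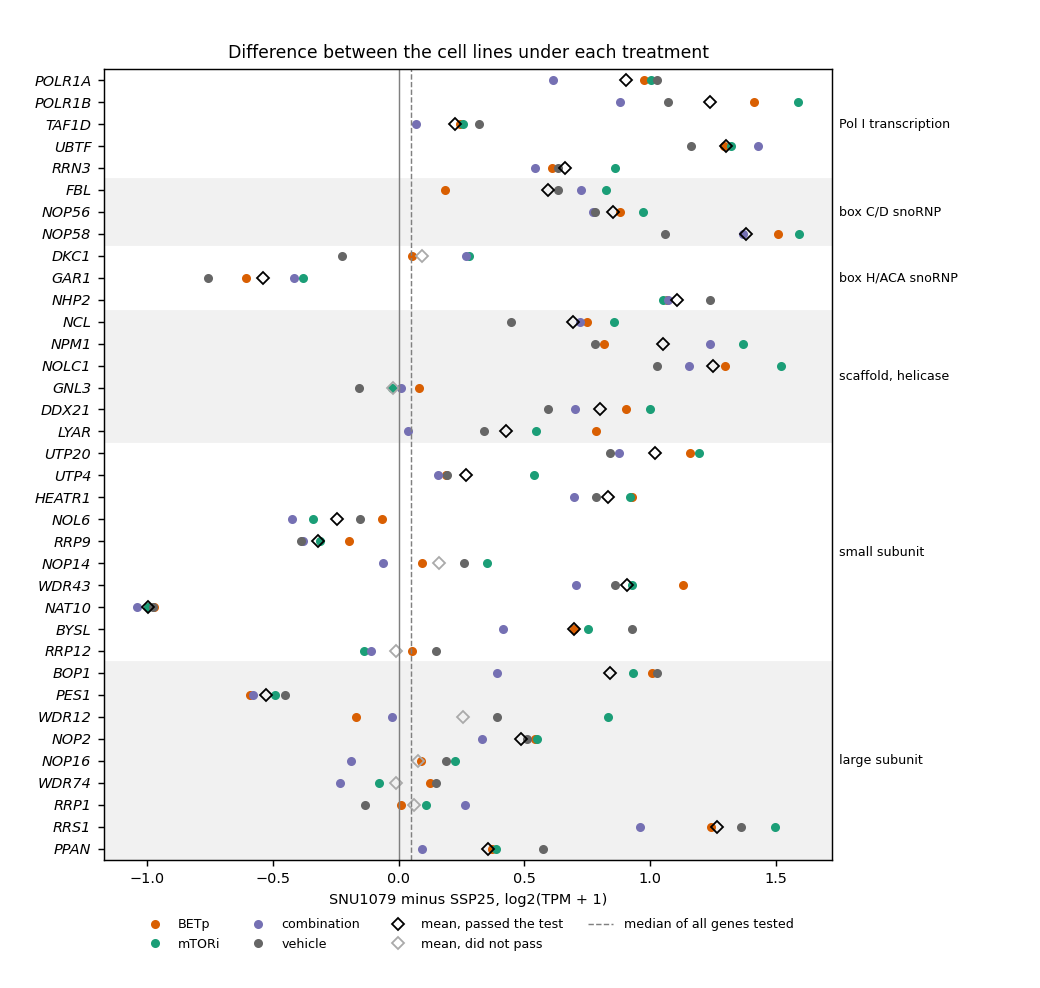
Difference between the lines, SNU1079 minus SSP25 in log2(TPM + 1), under each of the 4 treatments (colored points) with the mean (diamond, black where the test was passed); the dashed line is the median over all genes tested (0.05). Black diamonds to the right outnumber those to the left by 23 to 5, and the points of NHP2 and GAR1, or of BOP1 and PES1, lie on opposite sides of 0.

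MYC was higher in SNU1079, at 98.1, 149, 124 and 121 TPM under BETp, mTORi, the combination and vehicle, against 31.6, 44.3, 43.8 and 41.8 TPM in SSP25 (1.58 ± 0.08, limma adjusted p = 5.66e-07). Its dimerization partner MAX was lower in SNU1079 (-1.15 ± 0.07, limma adjusted p = 2.79e-06). Since MYC with MAX binds the E-box, the letters CACGTG were looked for in the promoter windows of RefSeq (GRCh38.p14, 250 bases before to 50 after a gene's start). The motif is its own reverse complement, so 1 strand covers both. Windows were found for 31 of the 36 genes. NOP58, NOLC1, RRP12, BOP1 and RRS1 were not matched. The motif was in a window of 15 of the 31 (48.4%), against 8.77% of all 27305 genes with a window, 12.6% of those among the genes tested and 28.8% of 111 other ribosome assembly genes. It lay before or at the start in DDX21, LYAR, UTP20, UTP4, RRP9 and NAT10, and after it in FBL, GAR1, GNL3, NOL6, NOP14, WDR43, BYSL, PES1 and NOP2. The 50 bases that end at the last base before the start are shown for genes that were higher (DDX21, UTP20, UTP4) and lower (NAT10, RRP9) in SNU1079, with the E-box in capitals. For RRP9 they end at the first transcribed base. Positions are GRCh38.p14, on the strand of the gene.
DDX21 (chr10:68956597-68956646, plus strand): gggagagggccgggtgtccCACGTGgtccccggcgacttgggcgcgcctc
UTP20 (chr12:101280055-101280104, plus strand): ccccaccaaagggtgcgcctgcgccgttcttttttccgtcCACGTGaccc
UTP4 (chr16:69132599-69132648, plus strand): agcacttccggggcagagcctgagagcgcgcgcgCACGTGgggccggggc
NAT10 (chr11:34105579-34105628, plus strand): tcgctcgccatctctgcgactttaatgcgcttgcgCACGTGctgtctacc
RRP9 (chr3:51941904-51941953, minus strand): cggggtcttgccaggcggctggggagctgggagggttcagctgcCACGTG

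The motif was found among genes of either direction. It was in all 5 genes lower in SNU1079, in 8 of 19 higher genes with a window and in 2 of 7 that did not pass. The median line difference was 0.27 in the 15 genes with the motif and 0.68 in the 16 without. Under the combination the medians were -0.23 and -0.21, under averaged BETp -0.07 and -0.13, and under averaged mTORi -0.15 and -0.12, in the same order. These values carry no test, and a match in a window is a description of letters only.

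A wider list of 130 other ribosome assembly genes, of which 129 were tested, was set beside the 36. Under the combination, 0 of 129 passed (1.81% of all genes) and the median was -0.23. At an unadjusted p under 0.05, 37 were lower and 1 higher, against 3610 and 538 of all 16060 genes. Among its genes below vehicle, the smallest adjusted p were those of RPF2, the partner of RRS1 in bringing 5S rRNA to the large subunit (-0.73 ± 0.15), KRR1 (-0.72 ± 0.15), MAK16 (-0.65 ± 0.13) and LTV1 (-0.57 ± 0.12), at limma adjusted p from 0.0566 to 0.0585. RPF2 had 16.5 and 36.6 TPM under the combination, against 28.6 and 60.2 TPM with vehicle. Under averaged BETp 0 of 129 passed (1.82% of all genes), with UTP18 at -0.37 ± 0.09 (limma adjusted p = 0.0752). An unadjusted p under 0.05 was reached by 27 of 129, against 3664 of all 16060 genes. Under averaged mTORi 1 of 129 passed, against 1.05% of all genes. It was GLTSCR2 (the gene NOP53, a large subunit assembly factor), which rose by 0.47 ± 0.06 on the log2 scale (limma adjusted p = 0.0332). It had 374 TPM under mTORi against 284 TPM with vehicle and 376 TPM under the combination against 263 TPM under BETp in SNU1079, and 103 against 73.7 TPM and 107 against 75.7 TPM in SSP25. GLTSCR2 was thus higher with mTORi in 4 of 4 pairs. A change below 0 was found in 116 of the 129 genes (median -0.15) and in 11741 of all 16060 genes (median -0.11). The call of GLTSCR2 was lost whenever any 1 library was left out, although the change stayed between 0.45 and 0.50, and the call held in 5 of 16 alternatives. Between the lines, 59 of the 129 were higher and 47 lower in SNU1079, against 39.1% and 36.6% of all genes, a more even split than the 23 and 5 of the 36, and the difference between the lists was not tested.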

How the data were processed

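RNA sequencing values of 8 libraries, 1 for each of 4 treatments in SNU1079 and SSP25, were taken as the authors deposited them: gene-level TPM in 1 table per line, with strand-specific libraries and genome build GRCh37 per the labels. The submitters' processing notes name DESeq2 and edgeR, and which aligner and gene annotation were used is not given in the sources used here. Depth is unknown. Groups came from the sample labels, and 0 columns were left unmatched.

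From these values log2(TPM + 1) was computed, a gene was kept if 2 or more libraries held it at 1 TPM or above, and linear models were fitted with limma 3.58.1 in R 4.3.3 (eBayes with trend, two-sided, Benjamini-Hochberg over all genes kept). Treatment and cell line were the terms for comparisons of 2 treatments and additivity (3 residual degrees of freedom); cell line, BETp and mTORi those for averaged effects and the line difference (4); line-by-drug terms were added for differences in response (2). Pairing came from the cell line, which was a block in every fit. The models were tested on simulated data.

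The 36 genes, the wider list and the named-gene rule were chosen with earlier results of these data known. Named with test values were the genes that passed, up to 12 a comparison, or else up to 3 in each direction that shared their sign in both lines (for line differences, a selection of the largest). From the wider list, up to 4 per role and comparison were named by smallest adjusted p. Gene positions were looked up by symbol in GENCODE 44 lifted to GRCh37. The value of 1 marker gene is not reported here.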

Additional observations from a re-analysis of the deposited data

How the results depend on the processing

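The alternatives comprised a pseudocount of 0.1, tests without a filter or with one of 5 TPM, quantile normalization, rescaling without mitochondrial and ribosomal protein genes, median centring, robust eBayes without trend, no block for the cell line, and leaving out each library. Of the 36 genes, 0 were called for any drug under these, except that the filter of 5 TPM called 1 under the combination (NOP56) and 1 under averaged mTORi (NOP2). That filter tests fewer genes. Without the replicate block for the cell line, 0 of the 36 genes were called for any drug. The count called between the lines was 28 to 34 under the other settings and 25 to 28 with 1 library left out. Counts over all genes moved more: the combination gave 291 calls, 657 with the 5 TPM filter, 86 with the pseudocount of 0.1, 78 after median centring, 27 after rescaling, 21 after quantile normalization, 9 with robust variances, 2 without a filter and 0 without the block. The split between 47 higher and 244 lower genes became 53 and 25 after median centring and 12 and 9 after quantile normalization. Leaving out single libraries, in fits where a lone library is assumed to vary like the others, turned the sign of small changes. BETp against vehicle ranged from -0.043 to 0.17 for RRP12 and -0.062 to 0.18 for NOL6, and WDR12 under mTORi from -0.72 to 0.053. The combination against mTORi ranged from -0.045 to 0.19 for NOL6 and -0.023 to 0.15 for RRP12. Departure from additivity ranged from -0.28 to 0.0092 for GAR1, -0.27 to 0.086 for PPAN, -0.092 to 0.33 for NPM1 and -0.12 to 0.15 for RRP1. None of these had passed a test. TPM keep no depth, so the counting error of low genes such as UTP20 cannot be given.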
